A study of Mus musculus with 4 samples.

Results

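The genes described here are the mouse zinc finger protein genes with symbols made of Zfp and a number, from Zfp600 to Zfp999. They were taken by symbol alone, though the set was chosen with earlier results of these data known. They numbered 167 of the 25239 gene symbols measured. A mean raw count of at least 10 reads over the 4 libraries was passed by 133 of them, against 13357 of all genes. Of the other members, 13 had 0 reads in every library and 21 had reads but lay under the minimum.

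RNA-seq was done on tumors of B16, a mouse melanoma line, seeded under the skin of B6 mice. Treatment was on day 7, and tumors were harvested 12 days after ACT, which the labels do not expand. CTX had been given to all mice into the peritoneum on the day before ACT. The MV left tumor was injected with free MV, and its mice had TRP-1 T cells by vein as well. The tables write MV as MYXV, the usual abbreviation of myxoma virus, a rabbit poxvirus. The TRP-1 TMV tumor came from mice given TRP-1 TMV cells by vein. The MV left and TRP-1 TMV tumors are called the virus tumors here, after their treatment. The remote tumor was the uninjected right tumor of the mice whose left tumor had received MV, so its mice had received both T cells and virus. The CTX tumor came from a group whose label gives PBS into the left tumor, with no T cells and no virus. Which tumor of that group was sequenced is not stated. Each group had 1 library. An n of 2 is given in the labels without word on pooling of mice, and no test between groups was possible. Tumor tissue is named in the extraction protocol, and a melanoma cell line in the source field.

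Most proteins of this family bind DNA through an array of C2H2 zinc fingers. Many also carry a KRAB box near their start, which recruits the corepressor TRIM28 and, through it, the histone methyltransferase SETDB1, and the best known targets of such proteins are endogenous retroviruses and other transposable elements. Many of their genes lie in clusters that grew by duplication, and close copies make short reads harder to assign.

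A KRAB A-box pattern was found in the translated sequence of 114 members, and 50 proteins lacked it. The tables held 296 genes with the pattern among 20386 with a translated protein. Members with the pattern had a median of 11 fingers and those without had 7, and the longest array had 33. Members past the minimum had a median of 222 reads as their mean over the 4 libraries, against 571 reads for all genes past it. Per kilobase of exon, the median level in the CTX tumor was 2.59 CPM for 88 members with the KRAB pattern and 5.30 CPM for 44 without it. CPM is the usual depth-scaled read count, here scaled by trimmed means of M values (TMM). Members were thus weakly expressed genes on the whole, and those with the KRAB box were the weaker class.

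Promoters, from 250 bases before to 50 after the start, were available in RefSeq (GRCm38.p6) for 116 of the 133 members. The 5 below belong to called members and show the kinds of match that a search found, with matched letters in capitals. Zfp672 (chr11:58330290-58330589, minus strand) was higher in both virus tumors, and held the ETS letters CCGGAAGT on the opposite strand. Zfp747 (chr7:127376001-127376300, minus strand) was also higher and held the E-box CACGTG. Zfp867 (chr11:59472425-59472724, minus strand) was also higher and held the interferon-response-like letters GAAANNGAA. It was the 1 member to do so among the 14 called higher and 8 called lower against the CTX tumor that had a promoter available. Zfp882 (chr8:71908356-71908655, plus strand) was lower in the TRP-1 TMV tumor, at a log2 ratio of -1.18 [-1.6, -0.78] to the CTX tumor, though short of 2-fold under scaling by total counts (-0.94), and held the YY1 letters AAGATGGCG at 2 places. Zfp617 starts inside this window on the same strand, and the spans of both genes overlap. Against the CTX tumor, Zfp617 was at 0.72 [0.5, 0.94] in the MV left tumor and 0.53 [0.32, 0.75] in the TRP-1 TMV tumor. How reads in shared exons were counted is not given. Zfp970 (chr2:177464492-177464791, plus strand) was lower in both virus tumors and is shown since it held no searched motif.
Zfp672: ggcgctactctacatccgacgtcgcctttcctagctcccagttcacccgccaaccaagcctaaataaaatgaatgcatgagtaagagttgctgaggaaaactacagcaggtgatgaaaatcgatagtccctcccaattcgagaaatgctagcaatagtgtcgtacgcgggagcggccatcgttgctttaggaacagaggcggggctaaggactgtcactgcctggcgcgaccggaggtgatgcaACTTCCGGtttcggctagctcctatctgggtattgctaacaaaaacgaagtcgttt
Zfp747: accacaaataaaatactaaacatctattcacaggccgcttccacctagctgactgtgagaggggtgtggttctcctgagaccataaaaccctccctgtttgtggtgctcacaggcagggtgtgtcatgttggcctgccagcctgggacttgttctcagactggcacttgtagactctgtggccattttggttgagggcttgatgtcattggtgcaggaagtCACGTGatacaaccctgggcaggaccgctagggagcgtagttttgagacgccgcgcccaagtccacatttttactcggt
Zfp867: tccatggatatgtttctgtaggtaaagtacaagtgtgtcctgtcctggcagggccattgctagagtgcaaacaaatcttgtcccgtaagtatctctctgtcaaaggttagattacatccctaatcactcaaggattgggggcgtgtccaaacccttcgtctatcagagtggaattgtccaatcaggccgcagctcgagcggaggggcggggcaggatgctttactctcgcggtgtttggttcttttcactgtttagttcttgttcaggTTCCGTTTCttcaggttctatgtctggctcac
Zfp882: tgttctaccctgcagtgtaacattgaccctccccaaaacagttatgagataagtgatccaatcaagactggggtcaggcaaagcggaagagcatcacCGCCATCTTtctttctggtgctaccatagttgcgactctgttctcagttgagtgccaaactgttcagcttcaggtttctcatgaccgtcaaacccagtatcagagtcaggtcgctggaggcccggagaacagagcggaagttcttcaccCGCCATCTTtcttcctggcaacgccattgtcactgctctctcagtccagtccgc
Zfp970: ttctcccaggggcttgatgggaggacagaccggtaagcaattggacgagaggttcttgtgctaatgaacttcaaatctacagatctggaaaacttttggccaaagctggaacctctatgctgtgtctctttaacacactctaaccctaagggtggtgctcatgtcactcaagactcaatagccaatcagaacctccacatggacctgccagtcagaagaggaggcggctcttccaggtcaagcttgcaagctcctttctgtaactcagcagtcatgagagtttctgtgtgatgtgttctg

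Both strands were searched, and the E-box reads the same on both. The interferon-response-like letters were in 6.03% of members' promoters past the minimum and in 7.23% of all genes' promoters past it. The YY1 letters were in 1.72% of members and 3.07% of all genes, and the NRF1 letters GCGCATGC in 5.17% of members and 5.39% of all genes. The ETS letters were in 8.62% of members and 8.25% of all genes, and the ZNF143 letters ACTACAA in 4.31% of members and 4.29% of all genes. Over both protein classes, the members were close to all genes in each of these but the YY1 letters, where few promoters held a match. The protein classes differed from each other in these counts, which are small, over 81 promoters with the KRAB pattern and 34 without it. The E-box was in 13 of the 81 (16.0%) and in 0 of the 34, while 10.2% of all promoters past the minimum held it. The ETS letters were in 6.17% and 14.7% of the classes, the NRF1 letters in 3.7% and 8.82%, the ZNF143 letters in 2.47% and 8.82%, the interferon-response-like letters in 7.41% and 2.94%, and the YY1 letters in 2.47% and 0%. CpG pairs differed more, with a median of 12 a promoter in members and 20 in all genes. Within the members the median was 10 CpG with the KRAB pattern and 21.5 without it. Promoters of members called higher in at least 1 virus tumor against the CTX tumor had a median of 16.5 CpG over 14 genes, and those of members called lower had 8.5 over 8 genes. A match describes the letters of this window and nothing else.

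Total counts were between 12375526 in the MV left tumor and 21790759 in the remote tumor, and members held 0.373% of the reads in the MV left tumor, 0.356% in the TRP-1 TMV tumor, 0.260% in the remote tumor and 0.272% in the CTX tumor. A count of 0 allowed a level of up to 0.222, 0.186, 0.151 and 0.156 CPM in that order of tumors, taking 3 counts as the floor. Melanocyte markers were present in all 4 tumors, and markers of immune cells were higher in the virus tumors. The 7 melanocyte genes summed to 5740 CPM in the MV left tumor and 5380 CPM in the TRP-1 TMV tumor, against 25100 CPM in the remote tumor and 24700 CPM in the CTX tumor, and all 7 were lower in each virus tumor. The 6 T cell genes summed to 148 and 149 CPM in the MV left and TRP-1 TMV tumors, against 1.71 and 1.93 CPM in the remote and CTX tumors. The 5 macrophage and monocyte genes gave 819 and 1210 CPM, against 60.3 and 46.8 CPM, in the same order. The 3 endothelial genes gave 16.4 and 17.6 CPM, against 6.43 and 6.52 CPM. Of these, Pecam1 and Kdr were called higher in both virus tumors against the CTX tumor. Cdh5 was not, at 2.66 and 2.55 CPM in the virus tumors, 1.76 in the remote tumor and 2.56 in the CTX tumor. The 3 fibroblast genes lay between 28.5 and 31.7 CPM in all 4 tumors. The genes Rn45s, Lars2, Rpph1 and Rmrp were grouped as a rough sign of RNA without a poly(A) tail. They took 1.64% and 1.62% of reads in the virus tumors, against 0.164% and 0.141% in the remote and CTX tumors. These shifts accompany every difference between a virus tumor and the remote or CTX tumor below, and their part in it was not tested. In bulk tumors, fewer cells of a type and less RNA per cell cannot be told apart.

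The distribution of the members' ratios was set beside other genes of like expression, meaning genes in the same of 10 equal classes of mean CPM. Between either virus tumor and the CTX tumor the members spread less than those genes. In the MV left tumor against the CTX tumor, the range from the 10th to the 90th percentile was 1.97 log2 units for members and 4.29 for genes of like expression. In the TRP-1 TMV tumor against the CTX tumor it was 1.88 and 4.54, and in the MV left tumor against the remote tumor it was 1.90 and 4.23. The narrowing was mostly on the upper side, since the 90th percentile in the first of these was 1.18 for members and 3.2 for the others, while the 10th was -0.79 and -1.09. The others included genes that passed the minimum only through the virus tumors and had to be high. Without genes past the minimum through 1 pair of tumors, all genes called higher in the TRP-1 TMV tumor against the CTX tumor fell from 2476 to 1654. The members called fell from 16 to 13. How far this filter sets the upper side of either distribution was not tested. In the remote tumor against the CTX tumor the widths were 0.53 and 0.55, close to each other, and in the TRP-1 TMV tumor against the MV left tumor they were 0.56 and 0.64.

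**Figure D1:**
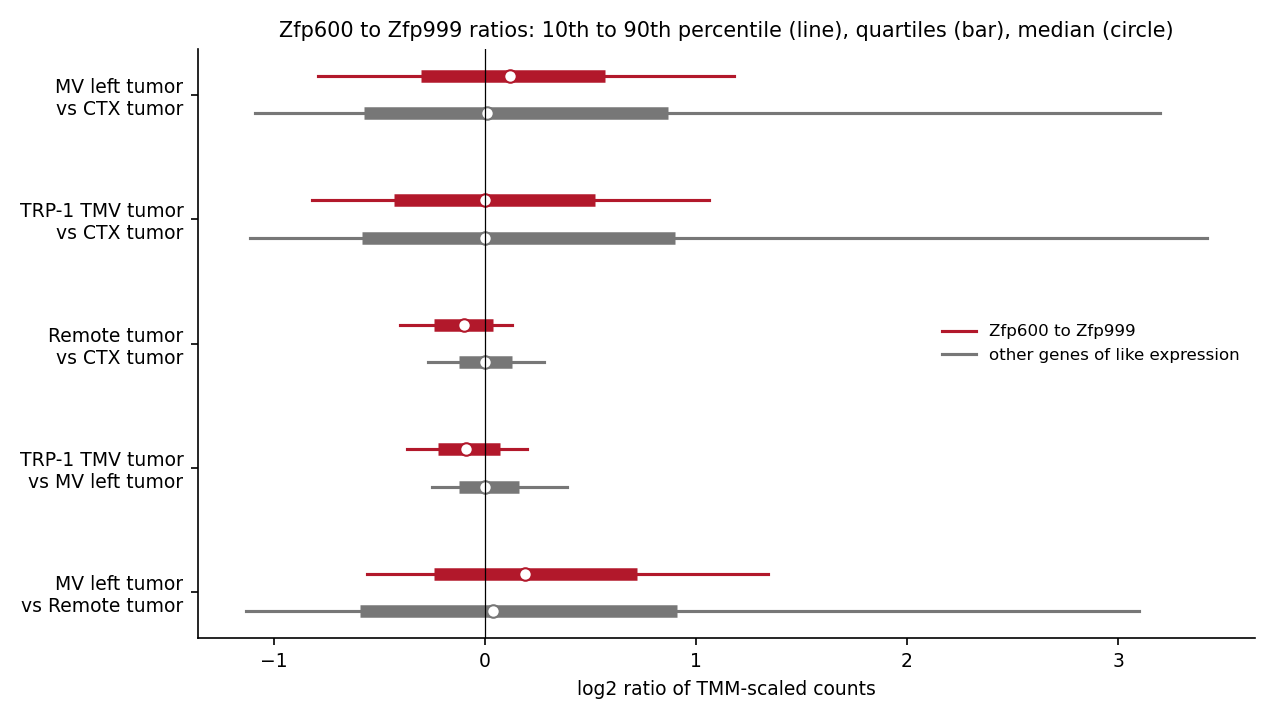
Log2 ratios of TMM-scaled counts (x axis) in 5 comparisons (y axis) for Zfp600 to Zfp999 members past the minimum count (red) and for other genes of like expression (grey), with the 10th to 90th percentile as a line, the quartiles as a bar and the median as a circle. The grey lines reach past 3 on the upper side in the 3 comparisons of a virus tumor with the remote or CTX tumor, whereas the red lines end between 1.06 and 1.34. Grey includes genes that passed the minimum only through the virus tumors.

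A gene was called higher or lower where its ratio was at least 2 and the 95% exact conditional binomial (Clopper-Pearson) interval excluded 1. Intervals stand in brackets after log2 ratios and cover counting error only, not differences between mice or library preparations. In the MV left tumor against the CTX tumor, 15 of 133 members were called higher and 7 lower. Of all genes compared, 18.1% were called higher and 11.1% lower. The genes of like expression were called at 22.9% and 11.6%, and the members at 11.3% and 5.26%, below both backgrounds in each direction. Both backgrounds kept genes that passed the minimum only through the virus tumors and had to be high. Their median log2 ratio was 0.12, against -0.05 for all genes and 0.01 for genes of like expression. Under scaling by total counts 28 members were called higher and 2 lower, and the median of all genes moved to 0.19, with 0.36 for members. The share of all genes called under total counts was not computed, here or below. The comparison with the backgrounds thus holds for TMM scaling only.

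In the TRP-1 TMV tumor against the CTX tumor, 16 members were called higher and 8 lower, against 18.5% and 11.7% of all genes. These were 12.0% and 6.02% of the members, while 23.6% and 12.2% of genes of like expression were called. The median was 0.00 to 2 decimals for members and for genes of like expression, and -0.07 for all genes. Scaling by total counts gave 24 higher and 6 lower. Zfp709, Zfp750 and Zfp811 passed the minimum only through reads in the virus tumors, and had to differ. Without them and Zfp982, which passed only through the remote and CTX tumors, 12 of 129 members were called higher in the MV left tumor and 13 in the TRP-1 TMV tumor. That count was chosen after the values were seen. By the same rule, all genes called higher in the TRP-1 TMV tumor against the CTX tumor fell from 2476 to 1654. The 18.5% of all genes is thus not a like background for the 13.

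In the MV left tumor against the remote tumor, a pair from the same treatment group, 18 members were called higher and 5 lower, against 18.6% and 11.7% of all genes. The members' median was 0.19, against -0.04 for all genes and 0.04 for genes of like expression. Total-count scaling gave 33 higher and 1 lower, with medians of 0.44 for members and 0.22 for all genes. This comparison shares no library with that of the TRP-1 TMV tumor against the CTX tumor. The same 14 members were called higher in both, which is 77.8% of the 18 and 87.5% of the 16. Of all genes called higher, 89.3% and 89.6% were shared between both lists. Zfp709, Zfp750 and Zfp811 were among the 14 and had to differ. Without genes past the minimum through 1 pair of tumors, 11 members were shared, or 73.3% of 15 and 84.6% of 13, against 85.6% and 86.0% for all genes. Among members called lower, 3 were shared (Zfp934, Zfp937 and Zfp976), or 60.0% of the 5 and 37.5% of the 8, against 80.5% and 80.9% for all genes. No member was called in opposite directions. Of the 18, those not called in the TRP-1 TMV tumor against the CTX tumor were Zfp605, Zfp712, Zfp869 and Zfp956, at log2 ratios of 1.52, 1.4, 1.05 and 1.43.

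**Figure D2:**
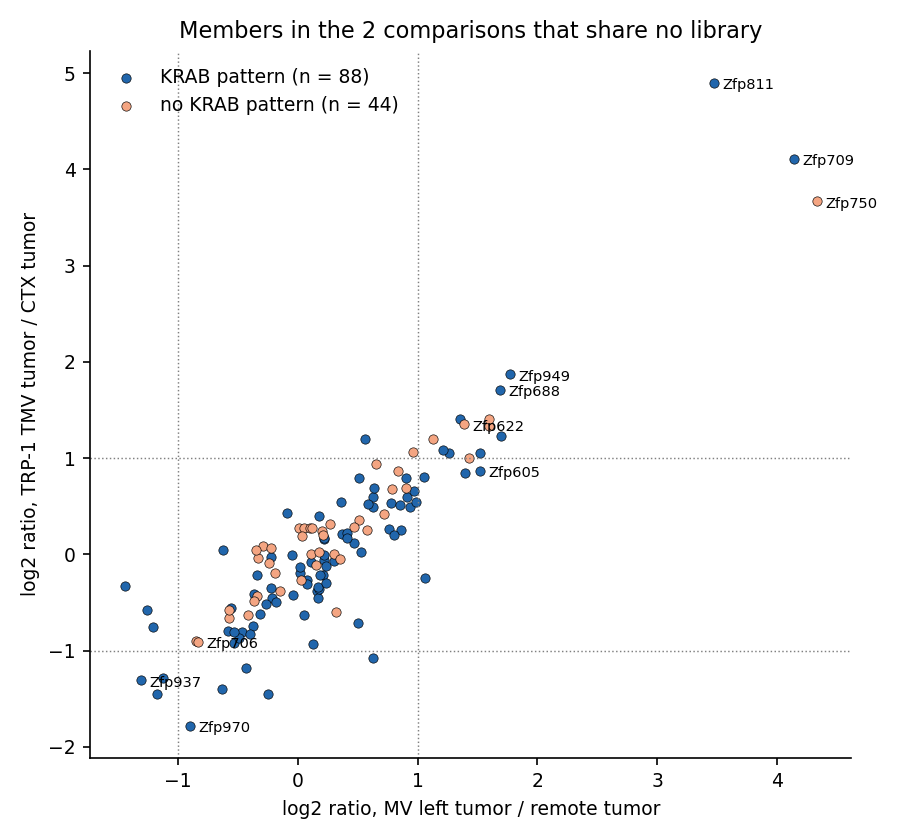
Log2 ratio of TMM-scaled counts in the MV left tumor over the remote tumor (x axis) and in the TRP-1 TMV tumor over the CTX tumor (y axis), 1 point a member, with colours for the KRAB pattern and dotted lines at a ratio of 2 in either direction. Zfp811, Zfp709 and Zfp750 stand apart at the upper right, and the points left of or below the lower dotted lines carry the KRAB pattern.

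The members called higher that had ample reads in all 4 tumors changed by moderate amounts. Zfp949 (ENSMUSG00000032425.15, chr9:88548020-88571061 in mm10, plus strand), a gene with a KRAB box and 11 fingers, had 252 reads in the MV left tumor, 280 in the TRP-1 TMV tumor, 109 in the remote tumor and 91 in the CTX tumor. Scaled, these were 18.6, 17.4, 5.48 and 4.75 CPM. Both virus tumors lay above both other tumors. The log2 ratio to the CTX tumor was 1.97 [1.62, 2.34] in the MV left tumor and 1.87 [1.53, 2.23] in the TRP-1 TMV tumor, and 0.21 [-0.21, 0.62] in the remote tumor.

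Zfp688 (chr7:127418967-127422068, minus strand) encodes a short protein with a KRAB pattern and 2 fingers. It had 32.0 CPM in the MV left tumor, 31.0 CPM in the TRP-1 TMV tumor, 9.90 CPM in the remote tumor and 9.49 CPM in the CTX tumor. Its log2 ratio to the CTX tumor was 1.76 [1.5, 2.01] in the MV left tumor and 1.71 [1.46, 1.96] in the TRP-1 TMV tumor. Zfp672 (chr11:58315114-58330339, minus strand), with 13 fingers and no KRAB pattern, had 36.8, 33.1, 12.2 and 12.5 CPM in the same order. The virus tumors were again above the others, by a log2 ratio of 1.56 [1.34, 1.79] in the MV left tumor and 1.41 [1.19, 1.64] in the TRP-1 TMV tumor, both against the CTX tumor.

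Zfp622 encodes a factor that acts in maturation of the large ribosomal subunit and was among the members with the most reads. It had 1499 reads in the MV left tumor, 1742 in the TRP-1 TMV tumor, 840 in the remote tumor and 812 in the CTX tumor. Its log2 ratio to the CTX tumor was 1.39 [1.27, 1.51] in the MV left tumor, 1.35 [1.23, 1.47] in the TRP-1 TMV tumor and 0.00 in the remote tumor. Zfp654 had 1411, 1540, 684 and 731 reads in that order of tumors. The MV left tumor exceeded the remote tumor by a log2 ratio of 1.6 [1.47, 1.74], and the TRP-1 TMV tumor exceeded the CTX tumor by 1.33 [1.20, 1.46]. Zfp747, Zfp821, Zfp850, Zfp867, Zfp959 and Zfp691 were called higher in both virus tumors against the CTX tumor with log2 ratios between 1.05 and 1.43. Zfp956 was called in the MV left tumor, at 1.31, and lay just short of the limit in the TRP-1 TMV tumor, at 1.0 [0.75, 1.25]. Zfp963 was called in the TRP-1 TMV tumor at 1.08, against 0.89 [0.35, 1.43] in the MV left tumor, and Zfp992 at 1.20, against 1.05 [-0.04, 2.19]. In counts thinned to the smallest total, Zfp867, Zfp963 and Zfp992 lost the call in the TRP-1 TMV tumor, at 0.90, 0.83 and 1.11. Between the virus tumors, Zfp956 was at -0.32 [-0.53, -0.10] in the TRP-1 TMV tumor over the MV left tumor, and the intervals of Zfp963 and Zfp992 held equality.

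The members with the highest ratios had few reads. Zfp709 (chr8:71882019-71895727, plus strand), with a KRAB box and 18 fingers, had 36 reads in the MV left tumor, 29 in the TRP-1 TMV tumor, 0 in the remote tumor and 2 in the CTX tumor. Its ratio to the CTX tumor was 25.5 in the MV left tumor, with a log2 interval of 2.72 to 7.77, and 17.3 in the TRP-1 TMV tumor, with an interval of 2.13 to 7.22. Zfp811 (chr17:32795676-32809931, minus strand) had 15, 50, 2 and 2 reads in the same order. It was the 1 member called between the virus tumors, higher in the TRP-1 TMV tumor than in the MV left tumor by a log2 ratio of 1.48 [0.63, 2.42].

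Zfp750 (chr11:121510978-121519333, minus strand) is the mouse counterpart of a human gene that drives the late differentiation of epidermis. It had 41 reads in the MV left and 32 in the TRP-1 TMV tumor, against 0 reads in the remote tumor and 0 in the CTX tumor. Against a floor of 3 counts in the CTX library, its ratio was 19.4 in the MV left tumor and 12.7 in the TRP-1 TMV tumor. With counting error in its own reads, the lower limits of the log2 ratio were 3.91 and 3.28. The 5 keratinocyte genes set beside it summed to 0.666 CPM in the MV left tumor, 0.993 in the TRP-1 TMV tumor, 0.1 in the remote tumor and 0 in the CTX tumor, where all 5 were at 0. That list (Krt5, Krt14, Krt1, Krt10 and Trp63) was added after the values were seen, and its part in the reads of Zfp750 was not tested.

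**Figure D3:**
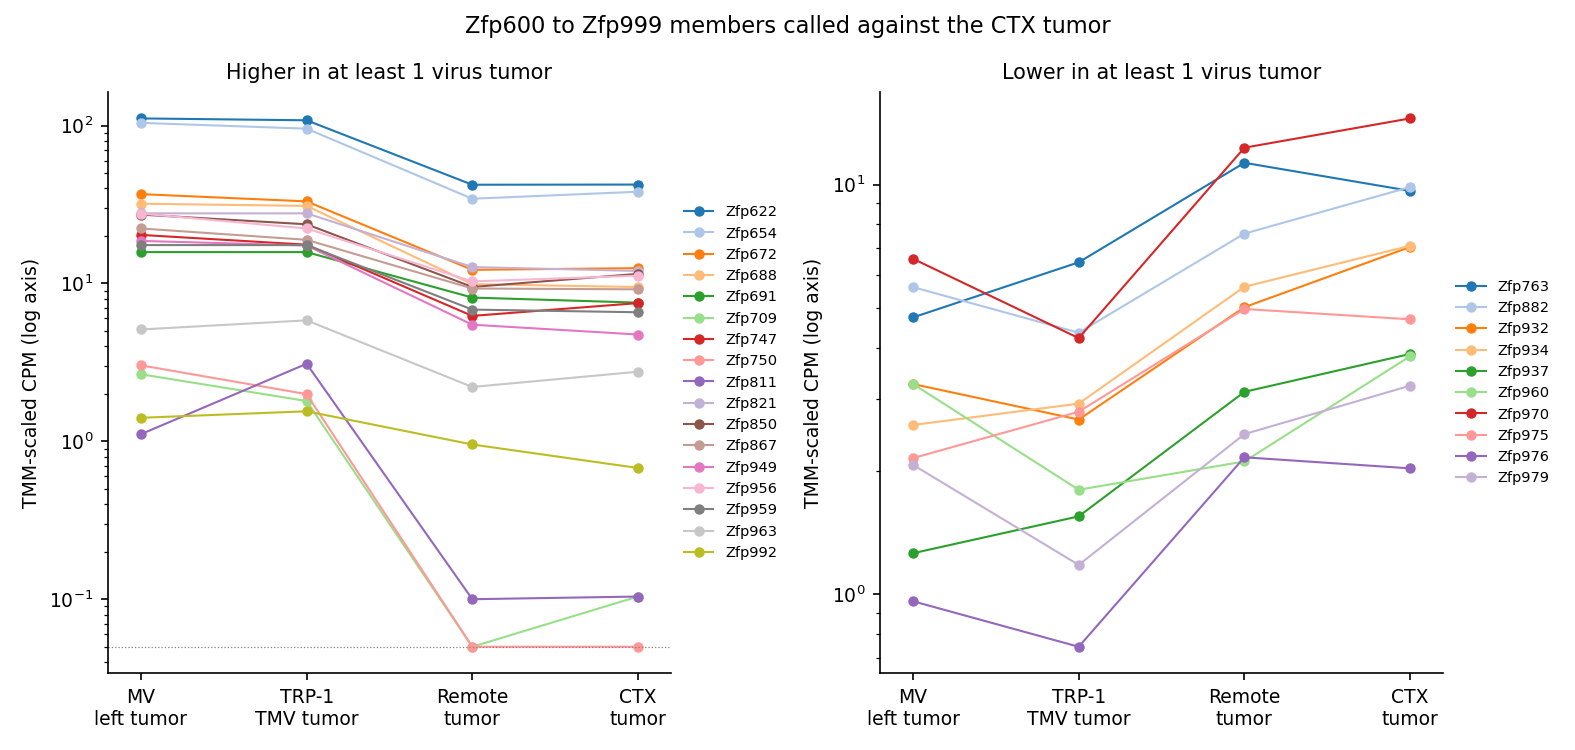
TMM-scaled CPM on a log axis (y) in the 4 tumors (x), 1 line a member, for the 17 members called higher (left) and the 10 called lower (right) in at least 1 virus tumor against the CTX tumor. Tumors with 0 reads are drawn at 0.05 CPM (dotted line), and Zfp709, Zfp750 and Zfp811 drop to the bottom of the left panel in the remote and CTX tumors.

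The members called lower were alike in their protein class and had few reads. All 7 called lower in the MV left tumor against the CTX tumor carried the KRAB pattern, as did all 8 in the TRP-1 TMV tumor and all 5 in the MV left tumor against the remote tumor. Of the members past the minimum, 88 carried it and 44 did not. Zfp970 (ENSMUSG00000078866.10, chr2:177464733-177478129, plus strand), with 14 fingers, had 89 reads in the MV left tumor, 68 in the TRP-1 TMV tumor, 244 in the remote tumor and 279 in the CTX tumor. Both virus tumors were below both other tumors. Its log2 ratio to the CTX tumor was -1.14 [-1.5, -0.79] in the MV left tumor, -1.78 [-2.19, -1.40] in the TRP-1 TMV tumor and -0.25 [-0.50, 0.01] in the remote tumor.

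Zfp934 (chr13:62479827-62571199, minus strand) had 35, 47, 112 and 136 reads in the MV left, TRP-1 TMV, remote and CTX tumors. Its log2 ratio to the CTX tumor was -1.45 [-2.03, -0.91] in the MV left tumor and -1.28 [-1.79, -0.79] in the TRP-1 TMV tumor. Zfp937 (chr2:150218073-150240725, plus strand) had 17, 25, 62 and 74 reads in the same order. The virus tumors were the lower ones again, at -1.62 [-2.47, -0.84] for the MV left tumor and -1.31 [-2.03, -0.64] for the TRP-1 TMV tumor. Zfp934 and Zfp937 were the 2 members that kept a lower call in the MV left tumor against the CTX tumor under all 4 other scalings, total counts included. Both share much of their sequence with another gene, as given below with Zfp932. The other 5 (Zfp763, Zfp932, Zfp970, Zfp975 and Zfp976) lost it under total counts, and Zfp763 under another scaling too.

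Zfp932, a repressor of endogenous retroviruses in mouse embryonic stem cells, had 44, 43, 100 and 135 reads in the MV left, TRP-1 TMV, remote and CTX tumors. Its log2 ratio to the CTX tumor was -1.11 [-1.64, -0.61] in the MV left tumor and -1.40 [-1.93, -0.89] in the TRP-1 TMV tumor. Near copies of Zfp932 limit this value, since 83.3% of its 8-residue words occur in the protein of another gene. The share was 73.5% for Zfp934 and 78.2% for Zfp937, whose values are limited in the same way. The span of Zfp934 also overlaps that of Zfp935 on the minus strand. Of the 7 members lower in the MV left tumor, 5 shared at least 50% of their words with another gene, as did 5 of the 8 in the TRP-1 TMV tumor, against 16 of the 133 members past the minimum. Reads of such genes can be lost or go to either copy, and how reads that map to several places were counted is not given in the sources used here. The median log2 ratio of those 16 was -0.22 in the MV left tumor, -0.33 in the TRP-1 TMV tumor and -0.24 in the remote tumor, all against the CTX tumor. For the other 117 it was 0.13, 0.05 and -0.08. The extreme of sharing was 6 members with every word found elsewhere, of which 5 had 0 reads in all 4 libraries.

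The KRAB classes differed most in their lower tails. In the MV left tumor against the CTX tumor, 88 members with the pattern had a median of 0.03, with 8 called higher and 7 lower, and 44 without it had a median of 0.17, with 7 called higher and 0 lower. In the TRP-1 TMV tumor the medians were -0.08 and 0.20, with 10 higher and 8 lower in the first class and 6 higher and 0 lower in the second. The sign of the first median was not stable, since it was 0.16 under total counts and 0.01 in thinned counts. In the MV left tumor against the remote tumor, the medians were 0.22 and 0.17, with 12 higher and 5 lower, and 6 higher and 0 lower. Zinc finger genes Zfp1 to Zfp599, of which 178 of 198 passed the minimum, held 13 called higher and 12 lower in the MV left tumor against the CTX tumor. Among those without the KRAB pattern, 4 of 89 were called lower, and with it 7 of 87. Members of the KRAB class were called higher at 9.09% and lower at 7.95% there, below the 18.1% and 11.1% of all genes. In the TRP-1 TMV tumor against the CTX tumor the class had 11.4% and 9.09%, below 18.5% and 11.7%. The class without the pattern had 15.9% and 13.6% called higher in the virus tumors. The classes also differed in depth, with medians of 158 reads with the pattern and 570 without it.

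**Figure D4:**
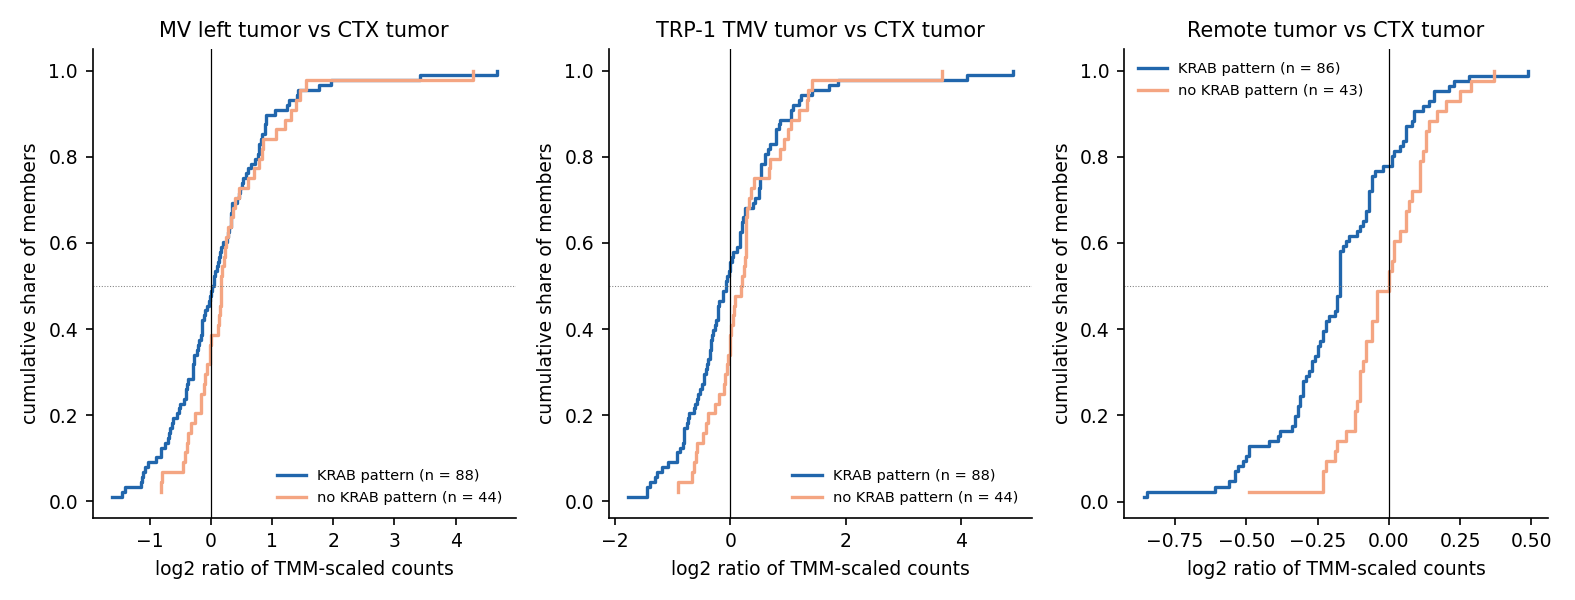
Cumulative share of members (y axis) by log2 ratio of TMM-scaled counts (x axis) for members with and without the KRAB pattern, in the MV left, TRP-1 TMV and remote tumors against the CTX tumor, with a dotted line at the median. In the remote tumor the curve of the KRAB class lies to the left, with a median of -0.17 against -0.00.

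The remote tumor, uninjected in mice given T cells and virus, was set against the CTX tumor. No member was called in either direction against the CTX tumor, where 0.457% of all genes were called higher and 0.247% lower. The members were nonetheless shifted slightly to lower values, with a median of -0.10 against 0.00 for genes of like expression, and 89 of the 130 with a ratio lay below the median of their expression class. The KRAB class had a median of -0.17 over 86 genes, while the 43 without the pattern had -0.00. With no limit on size, the interval excluded 1 for 6 members above and 21 below, against 12.4% of all genes above and 12.3% below. In the KRAB class these numbers were 1 above and 16 below. Zfp1 to Zfp599 with the KRAB pattern had a median of -0.14.

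Zfp605 (chr5:110110092-110129794, plus strand), with a KRAB box and 12 fingers, showed the clearest single difference of that kind. It had 136 reads in the MV left tumor, 187 in the TRP-1 TMV tumor, 70 in the remote tumor and 122 in the CTX tumor. The remote tumor was the lowest of the 4, with a log2 ratio to the CTX tumor of -0.86 [-1.30, -0.42]. Against the remote tumor, the MV left tumor was at 1.52 [1.09, 1.95] and was called higher. Zfp960 had 42 reads in the remote tumor and 73 in the CTX tumor, a log2 ratio of -0.85 [-1.43, -0.28]. Zfp958 and Zfp950 were at -0.54 [-0.80, -0.28] and -0.61 [-0.95, -0.27]. On the upper side Zfp668, which acts in DNA repair in human cells, was at 0.29 [0.12, 0.46] and Zfp787 at 0.25 [0.08, 0.42].

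The virus tumors were close to each other. In the TRP-1 TMV tumor against the MV left tumor, 1 member was called higher (Zfp811) and 0 lower, against 0.562% and 0.217% of all genes. The members' median was -0.09, against 0.00 for genes of like expression. The interval excluded 1 for 5 members above and 14 below, against 11.0% and 11.1% of all genes. Zfp970 was at -0.64 [-1.12, -0.17] and Zfp960 at -0.85 [-1.58, -0.15], which are the lowest by the bound nearest to equality.

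Members with many reads gave the narrowest intervals and mostly small differences. Zfp706, a small protein with 1 finger that takes part in the exit from self-renewal in mouse embryonic stem cells, had the most reads as a mean over the 4 libraries, with 1642 in the MV left tumor, 1831 in the TRP-1 TMV tumor, 4286 in the remote tumor and 4083 in the CTX tumor. Its log2 ratio to the CTX tumor was -0.81 [-0.89, -0.73] in the MV left tumor and -0.91 [-0.99, -0.83] in the TRP-1 TMV tumor, which is short of the limit of 2-fold. In both virus tumors Zfp664 had more reads, with 2284 and 2356, and so had Zfp638, with 2233 and 2473. Zfp637 gave nearly the same values, -0.81 [-0.98, -0.64] and -0.90 [-1.07, -0.74]. These 2 genes lack the KRAB pattern and lay furthest down among the members of that class in both virus tumors. Zfp703, whose human counterpart is an oncogene of breast cancer, lay on the other side at 0.83 [0.68, 0.97] and 0.94 [0.81, 1.08]. Zfp644, whose human counterpart works with the methyltransferases G9a and GLP, was at 0.78 [0.64, 0.93] and 0.69 [0.54, 0.83].

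Zfp932 apart, 3 further members with a known part in silencing retroviral DNA were not called. Zfp809, which recruits TRIM28 to murine leukemia virus and related elements in mouse stem cells, had 19.8 CPM in the MV left tumor, 20.2 in the TRP-1 TMV tumor, 17.0 in the remote tumor and 17.9 in the CTX tumor. Its log2 ratios to the CTX tumor were 0.14 [-0.09, 0.38], 0.17 [-0.05, 0.40] and -0.07 [-0.30, 0.15], none beyond counting error. Zfp638, whose human counterpart silences unintegrated retroviral DNA with the HUSH complex, was at 0.36 [0.27, 0.44] in the MV left tumor and 0.25 [0.17, 0.33] in the TRP-1 TMV tumor. Zfp708, a mouse repressor of a retrotransposon family, was at 0.30 [-0.16, 0.75] and 0.12 [-0.33, 0.57]. A further 8 members listed for a known role were within 2-fold of the CTX tumor in both virus tumors, unlike Zfp622, Zfp750 and Zfp932. They were Zfp687 (linked to Paget disease of bone in humans), Zfp746 (the parkin substrate PARIS), the paralogs Zfp608 and Zfp609, Zfp652, Zfp827, Zfp830 (a pre-mRNA splicing factor) and Zfp618. Their log2 ratios ran between -0.63 for Zfp618 in the TRP-1 TMV tumor and 0.32 for Zfp652 in the same tumor. Zfp711 had 0 reads in every library.

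The partners of KRAB proteins were taken from a list of 27 corepressor and chromatin genes, 26 of them measured. Their median was -0.24 in the MV left tumor, -0.30 in the TRP-1 TMV tumor and -0.05 in the remote tumor, each against the CTX tumor, and total-count scaling brought them to 0.00, -0.06 and -0.06. The medians of all genes were -0.05, -0.07 and -0.00. Strongly expressed genes lay lower than all genes in the virus tumors. In expression classes 8 to 10 of 10, the other genes had medians from -0.12 to -0.35 in the MV left tumor. They had -0.14 to -0.37 in the TRP-1 TMV tumor, both against the CTX tumor. The list as a whole was not set against genes of like expression. Of the 26, 1 was called higher and 1 lower in each virus tumor, or 3.85% each way, and none in the remote tumor. All genes were called at 18.1% and 11.1% in the MV left tumor and at 18.5% and 11.7% in the TRP-1 TMV tumor. Resf1, a regulator of retrotransposon silencing that works with SETDB1, had 109 CPM in the MV left tumor, 108 in the TRP-1 TMV tumor, 30.4 in the remote tumor and 34.9 in the CTX tumor. Its log2 ratio was 1.65 [1.52, 1.78] in the MV left tumor and 1.63 [1.5, 1.76] in the TRP-1 TMV tumor. Dnmt3b, a de novo DNA methyltransferase, was at -1.06 [-1.37, -0.77] and -1.19 [-1.48, -0.90], and fell short of 2-fold under total counts, at -0.82 and -0.95. Trim28 was at -0.36 [-0.40, -0.31] and -0.41 [-0.45, -0.37], which is -0.01 and -0.04 relative to the median of its expression class. Setdb1 was at -0.05 in each.

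Members lie in clusters, and neighbours did not all move together. Runs of at least 4 members with gaps of at most 1 Mb numbered 12. The run on chromosome 7 between 127244274 and 127885996 held 9 members, all past the minimum, with medians of 0.48 in the MV left tumor, 0.52 in the TRP-1 TMV tumor and 0.01 in the remote tumor against the CTX tumor. It holds Zfp688 and Zfp747, which were called higher, beside Zfp668 at 0.00 [-0.20, 0.20] in the MV left tumor. The run of 12 on chromosome 4 between 145510759 and 147848366 had 5 members past the minimum and medians of -0.64, -0.33 and -0.21. The run of 10 on chromosome 2 between 174643534 and 178078476 had 3 past the minimum, among them Zfp970, with medians of -0.40, -0.93 and -0.42.

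**Figure D5:**
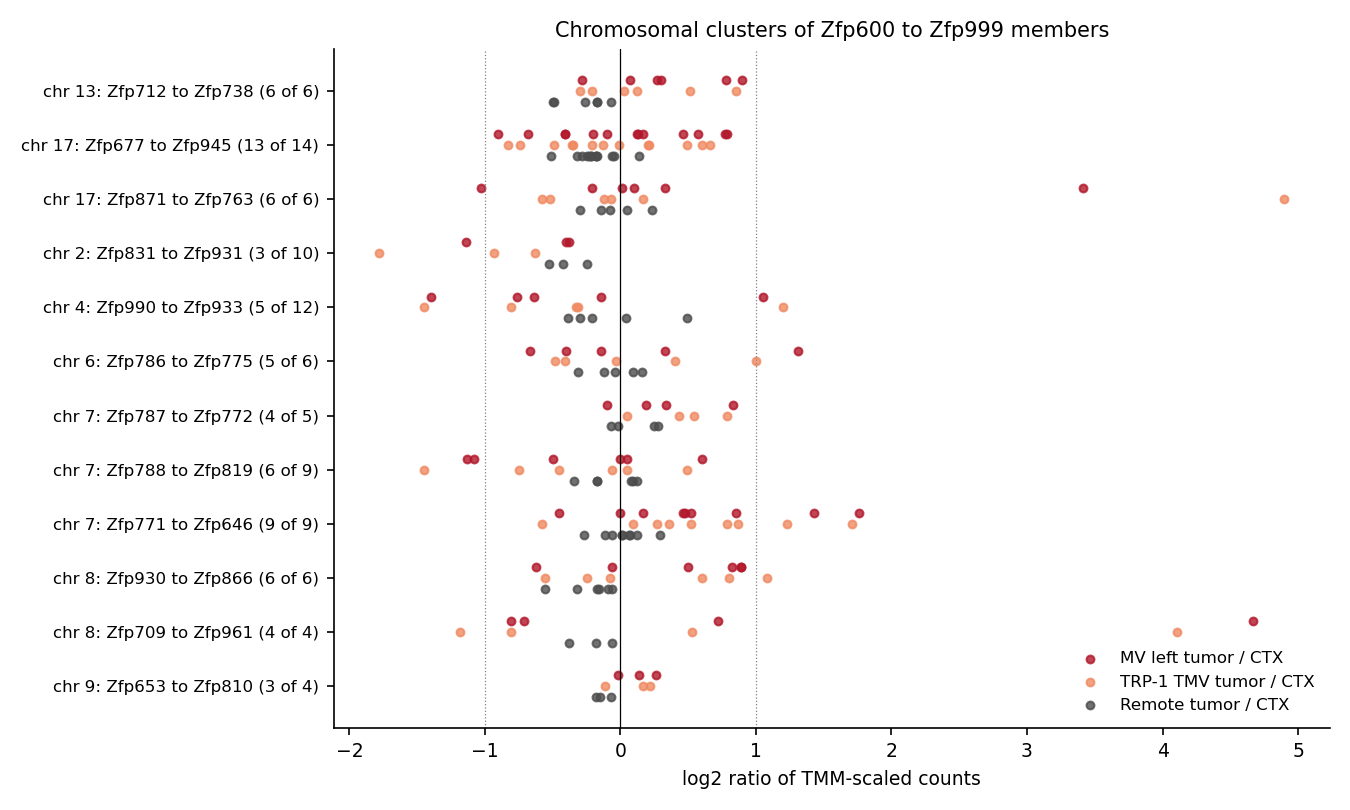
Log2 ratio to the CTX tumor (x axis) of each member past the minimum in the 12 chromosomal runs (y axis, named by the first and last member, with the number past the minimum of all members in brackets), in the MV left, TRP-1 TMV and remote tumors. The remote tumor's points lie between -0.56 and 0.49 in these runs, and the run on chromosome 7 from Zfp771 to Zfp646 reaches furthest right among runs without Zfp709 or Zfp811.

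The minimum count separated members of few reads. Just inside it were Zfp982, with 4, 10, 16 and 15 reads in the MV left, TRP-1 TMV, remote and CTX tumors, Zfp964 with 17, 12, 12 and 17 reads, and Zfp709. Just outside it were Zfp819 with 6, 28, 0 and 0 reads, Zfp783 with 10, 17, 1 and 0 reads, and Zfp831 with 18, 9, 0 and 1 reads in that order. All 3 outside it thus had nearly all of their reads in the virus tumors.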

How the data were processed

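Each deposited table holds the authors' raw count per gene symbol for 1 library, not normalized. HISAT2, featureCounts and build mm10 are named, per the submitters' processing notes, without versions. The annotation, strand setting and handling of multiply mapping reads were not given in the sources used. TMM factors (edgeR 4.0.16, R 4.3.3) were fitted over all genes. Ratios and intervals used scipy 1.17.1, pandas 2.3.3 and numpy 2.4.6 under Python 3.11.15, were checked on simulated counts, and were plotted with matplotlib 3.10.9. Where a library had 0 reads, 3 counts were used and the ratio is a bound, as for Zfp750 and Zfp709, which enter the medians at it. Ratios were left out where neither library exceeded 3 reads. Positions and proteins came from GENCODE M21, which held 166 of the 167 symbols, translated from the longest coding sequence (Biopython 1.88) in place of the RefSeq proteins planned. The KRAB pattern has 10 fixed letters with up to 3 mismatches. Promoters used the most upstream start. The rule for naming took 5 members at each end of every comparison, ranked by the interval limit closer to no difference, plus a list with known roles, and some of these are given by range or left out. Other called members were named after their values were seen. The members and lists were chosen with earlier results of these data known. Alternatives were total counts, DESeq2 1.42.0 size factors, upper-quartile factors, TMM without Rn45s, Lars2, Rpph1 and Rmrp, thinning, other minimums and ratios, 20 expression bins, means for medians, leaving out members of shared sequence and, added after seeing the data, leaving out members past the minimum through 1 pair of tumors. A marker list is not reported here.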

Additional observations from a re-analysis of the deposited data

How the results depend on the processing

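No paired analysis was possible because no group has more than 1 library. Over the counts and medians recomputed, 294 values held and 29 moved. The share of all genes called was not computed under the alternatives, so the counts of members below have no background beside them. Total counts gave 28 higher and 2 lower for the MV left tumor against CTX, and 33 and 1 against the remote tumor. With no minimum count, 1 member was lower in the remote tumor against CTX, and 2 were higher and 1 lower in the TRP-1 TMV tumor against the MV left tumor. A mean of at least 50 left 4 lower in the TRP-1 TMV tumor against CTX, 0 higher against the MV left tumor, and 3 lower in the MV left tumor against the remote tumor. A ratio of 1.5 gave 32 higher and 18 lower in the MV left tumor against CTX, 30 and 24 in the TRP-1 TMV tumor against CTX, 38 and 10 in the MV left tumor against the remote tumor, 3 lower in the remote tumor and 2 lower in the TRP-1 TMV tumor against the MV left tumor. A ratio of 4 gave 3 higher and 0 lower in each comparison of a virus tumor with CTX or the remote tumor, and 0 higher between the virus tumors. Those 3 were Zfp709, Zfp750 and Zfp811, which passed the minimum only through the virus tumors. An alternative added after seeing the data left out members past the minimum through 1 pair of tumors, and gave 0 higher between the virus tumors. Leaving out members of shared sequence left 2 and 3 lower in the MV left and TRP-1 TMV tumors against CTX, and 2 in the MV left tumor against the remote tumor. All 15 and 16 members called higher against CTX kept the call under the 4 other scalings, and 15 and 13 kept it in thinned counts, where Zfp867, Zfp963 and Zfp992 lost it in the TRP-1 TMV tumor. Of the 8 lower in the TRP-1 TMV tumor 6 kept it under those scalings, as Zfp882 (-0.94) and Zfp960 (-0.84) lost it under total counts, Zfp960 also in thinned counts (-0.97). The median over members of each ratio minus the median of its expression class was 0.13 and 0.10 in the MV left and TRP-1 TMV tumors and -0.10 in the remote tumor against CTX, -0.08 between the virus tumors and 0.21 in the MV left tumor against the remote tumor. It kept its sign under every alternative run, but came down to 0.07 and 0.03 in the first pair. Depth limits the members called lower, most of which had under 100 reads in each virus tumor.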

Other observations

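Some further members under the minimum count, picked after the values were seen, had reads almost only in the virus tumors, as single values with no test. Of all genes, 17232 and 17436 had reads in the MV left and TRP-1 TMV tumors, against 15951 and 15907 in the remote and CTX tumors. Of the members, 146, 149, 143 and 147 had reads in that order of tumors. Zfp820 had 7 and 13 reads in the MV left and TRP-1 TMV tumors, against 0 in the remote tumor and 0 in the CTX tumor. Zfp941 had 9 and 11 reads in the virus tumors, against 0 in the remote tumor and 1 in the CTX tumor. Zfp600 went the other way, with 0 and 1 reads in the MV left and TRP-1 TMV tumors, against 5 in the remote tumor and 5 in the CTX tumor. So did Zfp980, with 1 and 1 reads in the virus tumors, against 2 in the remote tumor and 10 in the CTX tumor.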
